A study of Arabidopsis thaliana with 8 samples.

Results

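The 10 genes described here encode tau class glutathione transferases of Arabidopsis thaliana: GSTU1 (AT2G29490), GSTU2 (AT2G29480), GSTU4 (AT2G29460), GSTU5 (AT2G29450), GSTU7 (AT2G29420), GSTU8 (AT3G09270), GSTU19 (AT1G78380), GSTU22 (AT1G78340), GSTU24 (AT1G17170) and GSTU25 (AT1G17180). They were taken by gene identifier, and all 10 are among the 23632 genes of the deposited normalized table. A further 18 tau class genes served for comparison, of which 17 are in that table. RNA was sequenced from pools of root tips, the outermost 1 mm of the root, of Col-0 wild type seedlings that were 5 days old when the treatment began. The high temperature group spent 48 h at 30 °C and the control group 48 h at 22 °C, with 4 libraries per group by the sample labels. Seedlings of both groups had grown on the same agar medium at 22 °C until then.

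Glutathione transferases join the tripeptide glutathione to reactive or foreign compounds, and the conjugates are carried into the vacuole and broken down there. The tau class is specific to plants and is the largest class of the family in Arabidopsis. It is best known from the detoxification of herbicides, explosives and products of lipid oxidation, and many of its genes respond to auxin, salicylic acid, oxylipins or oxidative stress. Several stand side by side in tandem arrays, so that neighbouring genes often encode closely similar proteins.

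The members differed in their temperature response. GSTU5, known as an auxin-inducible gene, was 3.49-fold higher at high temperature, and GSTU24, whose enzyme detoxifies the explosive TNT, was 1.94-fold higher. GSTU8 was 2.45-fold lower. The other 7 members did not pass both thresholds, which were 0.05 for the adjusted p and 0.58 for the size of the log2 fold change. Of the 10 members 2 were thus higher, where 20.0% of all 21739 genes tested were higher, and 1 was lower, where 17.5% of all genes were lower. In either direction this makes 3 of 10 members, beside 37.4% of all genes. The median log2 fold change was 0.42 over the 10 members and 0.01 over all genes tested.

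The members stand in 3 tandem arrays and at 1 single locus, and each has 2 exons. In the TAIR10.1 annotation the array on chromosome 2, on the minus strand, holds GSTU7 at chr2:12617936-12618899, GSTU5 at chr2:12624403-12625790, GSTU4 at chr2:12626478-12627891, GSTU2 at chr2:12630198-12631321 and GSTU1 at chr2:12631341-12632538, with GSTU6 and GSTU3 between them. GSTU24 (chr1:5869543-5870883) and GSTU25 (chr1:5872024-5873124) lie on the plus strand of chromosome 1 and are followed by GSTU26. Far from these on chromosome 1, on the minus strand, lie GSTU22 (chr1:29472845-29474003) and GSTU19 (chr1:29486387-29488007), with GSTU21 and GSTU20 between them and GSTU23 beyond GSTU22. GSTU8 stands apart at chr3:2848183-2849686 on the minus strand. The encoded proteins are 218 to 227 residues long, and their identity between members was 36.4 to 81.7%, with a median of 44.3% over 45 pairs. The closest pairs were GSTU1 with GSTU2 (81.7%) and GSTU24 with GSTU25 (79.4%), while GSTU8 was at most 49.5% identical to any tau class protein. Between 96.0 and 100% of the 31-base stretches of each member's exons occur once in the genome.

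The bases upstream of the genes were read because several glutathione transferase genes are known targets of TGA factors, bZIP proteins that bind the core TGACG. In the 250 bases upstream of the annotated start, TGACG was present on either strand in 6 of the 10 members (60%), in 5 of the 18 other tau class genes (27.8%) and in 18.6% of the 27443 protein-coding genes. Each stretch below is written 5′ to 3′ on the strand of its gene, with TGACG or its reverse complement CGTCA in capitals. Neighbouring matches are shown together. The genes that were higher (GSTU5, GSTU24) can thus be set against members that were not.
GSTU5, chr2:12625908-12625952, minus strand: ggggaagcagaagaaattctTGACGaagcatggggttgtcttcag
GSTU24, chr1:5869354-5869398, plus strand: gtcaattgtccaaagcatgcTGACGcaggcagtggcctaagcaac
GSTU22, chr1:29474066-29474110, minus strand: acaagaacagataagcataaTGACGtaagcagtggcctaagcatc
GSTU25, chr1:5871917-5871961, plus strand: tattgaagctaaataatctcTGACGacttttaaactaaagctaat
GSTU1, chr2:12632579-12632635, minus strand: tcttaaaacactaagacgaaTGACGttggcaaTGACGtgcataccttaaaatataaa
GSTU7, chr2:12618924-12618980, minus strand: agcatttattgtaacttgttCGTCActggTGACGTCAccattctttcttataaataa
The last 2 matches of GSTU7 overlap in TGACGTCA. The match of GSTU5 lies within TTGACG, which holds TTGAC, a part of the element bound by WRKY factors and not the whole of it. TTGAC also opens the GSTU24 stretch on the other strand, as gtcaa, and was not counted over the windows. GSTU22 and GSTU24, on distant parts of chromosome 1, shared the run gcagtggcctaagca 3 bases after the core. This run of 15 bases was found in 2 of the 27443 windows, those of GSTU22 and GSTU24, and the next longest run shared by a pair of members had 12 bases. GSTU2, GSTU4, GSTU8 and GSTU19 had no TGACG in the window. Windows were not cut at neighbouring genes. Most of the GSTU2 window (chr2:12631322-12631571) lies within the GSTU1 gene (chr2:12631341-12632538), and the window of GSTU18 lies inside the GSTU17 gene. The heat shock type sequence GAANNTTC was present in 1 member, GSTU25, and in 9.55% of all genes, and the auxin response sequence TGTCTC in 0 of the 10 members and in 10.9% of all genes. These matches are descriptions of letters in a window, and no binding was measured.

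The transcript levels of the members spanned more than 3 orders of magnitude per transcript length (FPKM as deposited, in which the normalized value of each gene is multiplied by a constant of that gene, so that it carries the size factors of DESeq2). GSTU19, an abundant enzyme active towards herbicides and other electrophiles, had a mean of 973 FPKM over the 8 libraries and ranked 38 among the genes of the table. GSTU25 followed with 790 FPKM (rank 73) and GSTU24 with 322 FPKM (rank 280). GSTU22 (141 FPKM) and GSTU1 (139 FPKM) had overlapping ranges at both temperatures, with GSTU22 above GSTU1 in all 4 high temperature libraries and in 1 of the 4 control libraries. GSTU8 had 35.6, GSTU7 26.2, GSTU5 17.2, GSTU4 6.01 and GSTU2 0.50 FPKM. The order depended on the temperature. GSTU19 and GSTU25 overlapped at high temperature, with 857 to 883 FPKM for GSTU19 and 816 to 970 FPKM for GSTU25, but not in the control, with 1047 to 1123 FPKM for GSTU19 and 643 to 707 FPKM for GSTU25. GSTU8 stood at 19.5 to 21.3 FPKM at high temperature, below GSTU5 at 23.2 to 30.8 FPKM, whereas in the control GSTU8 was at 47.8 to 52.6 FPKM and GSTU5 at 7.41 to 7.94 FPKM. GSTU7 overlapped both of them at high temperature, at 20.7 to 27.2 FPKM, and lay between them in the control, at 27.1 to 29.3 FPKM.

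**Figure D1:**
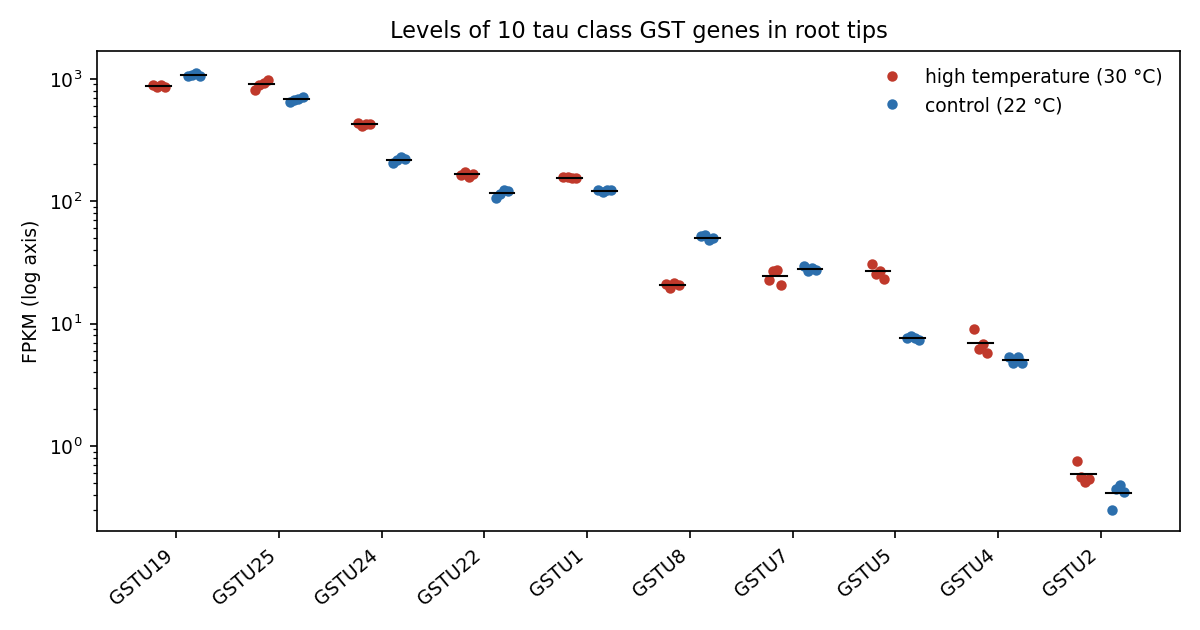
FPKM of the 10 genes (log axis) in each library, high temperature in red and control in blue, with the group mean as a black line, n = 4 libraries per group. GSTU5 and GSTU24 were higher and GSTU8 lower at high temperature with a wide gap between the groups, and the points of GSTU7 overlap.

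GSTU5 had 1544, 1282, 1361 and 1166 normalized reads in the high temperature libraries, against 381, 398, 382 and 372 in the control libraries. Every high temperature library was far above every control library, and the high temperature libraries were the more variable, with a coefficient of variation of 11.9% at high temperature and 2.86% in the control. The log2 fold change was 1.79 ± 0.073 (SE, limma, adjusted p = 8.6e-12). GSTU24 had 20743, 19654, 20229 and 20136 normalized reads at high temperature, against 9781, 10252, 10942 and 10576.5 in the control. The groups stood far apart relative to their spread, and the log2 fold change was 0.96 ± 0.036 (SE, limma, adjusted p = 3.8e-12). For GSTU8 the values were 1132, 1045, 1143 and 1106 normalized reads at high temperature and 2767, 2824, 2563 and 2687 in the control. Its libraries did not overlap either, with a log2 fold change of -1.29 ± 0.044 (SE, limma, adjusted p = 1.2e-12). GSTU5, GSTU24 and GSTU8 kept their calls under the 19 alternative settings of the processing, of which dropping the fold threshold could not end a call and the FPKM table differs only in the pseudocount and a constant per gene, with log2 fold changes of 1.72 to 2.00, 0.93 to 1.30 and -1.32 to -1.09.

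In GSTU19, GSTU25, GSTU22 and GSTU1, the most abundant members besides GSTU24, the differences were clear of the replicate spread but small. GSTU19 had 39034, 37887, 39043 and 38119 normalized reads at high temperature, against 46463, 47663, 49666.5 and 46300.4 in the control. All high temperature libraries were below all control libraries, at a log2 fold change of -0.30 ± 0.034 (SE, limma, adjusted p = 8.1e-07), but under quantile normalization the sign turned to 0.15. GSTU25, whose enzyme acts on TNT like that of its neighbour GSTU24, had 32733.5, 35705, 37394 and 38932 normalized reads at high temperature and 25798, 26999, 27547 and 28345 in the control. The groups did not overlap, and the log2 fold change was 0.41 ± 0.048 (SE, limma, adjusted p = 1.4e-06). GSTU22 had 6896, 7279.8, 6567 and 7026 normalized reads at high temperature, against 4491, 4833, 5181 and 5118 in the control, again without overlap and with a log2 fold change of 0.50 ± 0.045 (SE, limma, adjusted p = 7.6e-08). GSTU1 was the least variable member, with 6873, 6824, 6690.4 and 6764 normalized reads at high temperature and 5400.05, 5202, 5379.9 and 5339.5 in the control. Its coefficient of variation was 1.16% at high temperature and 1.68% in the control, and its log2 fold change was 0.35 ± 0.029 (SE, limma, adjusted p = 3.2e-08).

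The remaining members were weakly expressed or variable. GSTU4 had 417, 287, 319 and 268 normalized reads at high temperature, against 247, 222, 250.4 and 223 in the control. The first high temperature library stood above the rest, the groups did not overlap, and the log2 fold change was 0.43 ± 0.12 (SE, limma, adjusted p = 0.0048). Under quantile normalization the log2 fold change of GSTU4 was 0.23 and did not pass the test (limma, adjusted p = 0.10). GSTU7 was the 1 member whose groups overlapped, with 798, 934, 952 and 725 normalized reads at high temperature and 1026, 948, 996 and 953 in the control (log2 fold change -0.21 ± 0.076, SE, limma, adjusted p = 0.022). GSTU2 had 28.1, 21.1, 19.1 and 20.3 normalized reads at high temperature, against 11.4, 16.6, 18.1 and 15.7 in the control. Its groups lay next to each other without overlapping, and its log2 fold change of 0.51 had a 95% interval of -0.12 to 1.14 and did not pass the test (limma, adjusted p = 0.13). GSTU2 overlaps an annotated gene on the opposite strand over 849 bases, to which 2 reads were assigned over all libraries. GSTU7 overlaps AT2G29410 over 52 bases, with 24 reads over all libraries, and AT2G08340 over 636 bases, which was not analysed here. The strand setting of the counting is not given in the sources used here.

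By the adjusted p alone 6 members were higher and 3 lower at high temperature, where 35.9 and 35.2% of all genes were (71.1% in either direction). In 7 members every high temperature library was above every control library, and in 2 below, against 32.8 and 32.7% of all genes (65.5% in either direction). In a two-sided exact permutation test, with 70 arrangements possible, these 9 members had p = 0.029, the smallest that 4 against 4 libraries allow, and GSTU7 had p = 0.057. The scaling between libraries bears on the smaller differences: when every library was scaled to the same total, the median over all genes moved to 0.21 and the calls over all genes to 5965 higher and 2599 lower, beside 4344 higher and 3797 lower with the deposited scaling. On that scale 6 members were higher, as GSTU2 (0.71), GSTU4 (0.64), GSTU22 (0.71) and GSTU25 (0.61) then passed both thresholds. GSTU19 was then at -0.099 (limma, adjusted p = 0.011) and GSTU7 at -0.0070 (limma, adjusted p = 0.94). The normalized values add up to less in the high temperature libraries, while the reads in genes were 38216649 to 41833843 per library at high temperature and 38396646 to 40750937 in the control.

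Together the 10 members took up 0.306 ± 0.0046% of all reads at high temperature and 0.236 ± 0.0067% in the control (SD, n = 4 each). Their summed level was 2599 ± 51.6 FPKM at high temperature and 2301 ± 62.5 FPKM in the control, a ratio of 1.13, against 1.30 for the share of reads, which does not carry the deposited size factors. The members made up 90.0% of the FPKM of all tau class genes at high temperature and 86.3% in the control. Within this pool the shares of GSTU19, GSTU25 and GSTU24 differed most between the temperatures. GSTU19 held 30.2 ± 0.77% of the tau class FPKM at high temperature and 40.3 ± 0.56% in the control. GSTU25 held 31.2 ± 1.76% at high temperature and 25.4 ± 0.92% in the control, and GSTU24 14.8 ± 0.47% at high temperature and 8.21 ± 0.25% in the control. GSTU19 thus had 0.970 ± 0.081 times the FPKM of GSTU25 at high temperature and 1.59 ± 0.073 times in the control, while the 3 genes together held 76.2% at high temperature and 73.9% in the control. The share of GSTU5 was 0.926% at high temperature and 0.287% in the control, and that of GSTU8 0.714% at high temperature and 1.90% in the control. Of the other tau class genes, GSTU9 held 3.28% at high temperature and 0.055% in the control, and GSTU26 0.538% at high temperature and 3.18% in the control.

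**Figure D2:**
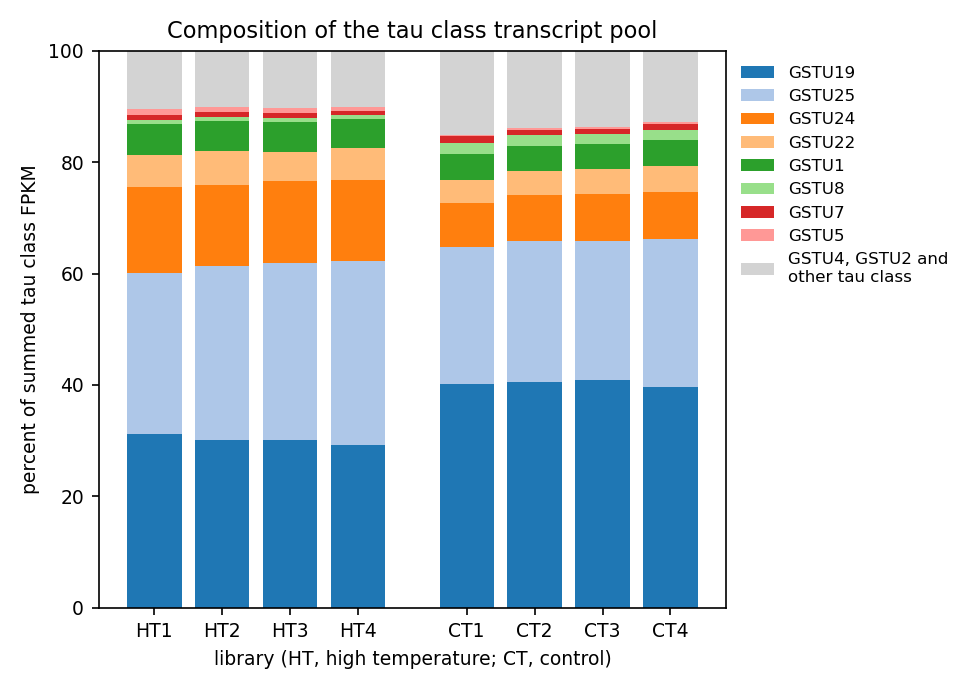
Percent of the summed tau class FPKM held by each gene in each library, the high temperature libraries HT1 to HT4 on the left and the control libraries CT1 to CT4 on the right. GSTU19 held on average 30.2% at high temperature and 40.3% in the control, and GSTU24 14.8% at high temperature and 8.21% in the control.

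Of the 10 pairs of neighbours in the arrays that were tested, 6 differed in their ratio between the temperatures and 4 did not pass the test. The share is near that of all adjacent genes tested, since in 58.7% of 21629 such pairs the ratios of the temperatures did not overlap. In the chromosome 2 array GSTU6, which lies between GSTU7 and GSTU5 and is 78.0% identical to GSTU5 in protein, was lower at high temperature (log2 fold change -0.90, limma, adjusted p = 4.0e-10). The log2 ratio of GSTU6 to GSTU5 was -0.64 ± 0.14 at high temperature and 2.06 ± 0.076 in the control (SD, n = 4 each), a difference of -2.70. The ratio of GSTU5 to GSTU4 differed by 1.36 and that of GSTU7 to GSTU6 by 0.69. Between GSTU2 and GSTU1, the pair with the most similar proteins, the log2 ratio was -8.24 ± 0.23 at high temperature and -8.40 ± 0.29 in the control, a difference of 0.16 that did not pass the exact permutation test (adjusted p = 0.51). GSTU3, between GSTU4 and GSTU2, had few reads, and neither of its ratios passed (adjusted p = 0.51 each, exact permutation).

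In the arrays on chromosome 1 some pairs differed more widely. The log2 ratio of GSTU24 to GSTU25 was -0.84 ± 0.13 at high temperature and -1.39 ± 0.039 in the control (SD, n = 4 each), a difference of 0.55 in favour of GSTU24. GSTU26, next in the array, had 464, 626, 738 and 789 normalized reads at high temperature, against 3726, 3536, 3553 and 3453 in the control, and was lower with a log2 fold change of -2.47 (limma, adjusted p = 3.5e-11). The ratio of GSTU25 to GSTU26 differed by 2.89. GSTU20, an enzyme linked to glucosinolate synthesis and the neighbour of GSTU19, had 12.2, 16.7, 14.3 and 16.5 normalized reads at high temperature and 417, 328, 349 and 307 in the control. Its log2 ratio to GSTU19 was -11.30 ± 0.22 at high temperature and -7.09 ± 0.20 in the control (SD, n = 4 each). The ratio of GSTU23, with few reads, to GSTU22 differed by -0.59 (exact permutation, adjusted p = 0.082). The 6 pairs that differed had an exact permutation p of 0.029 each (adjusted p = 0.048 over 10 pairs), and a ratio within a library is the same under any scaling of whole libraries, apart from the pseudocount of 0.5.

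**Figure D3:**
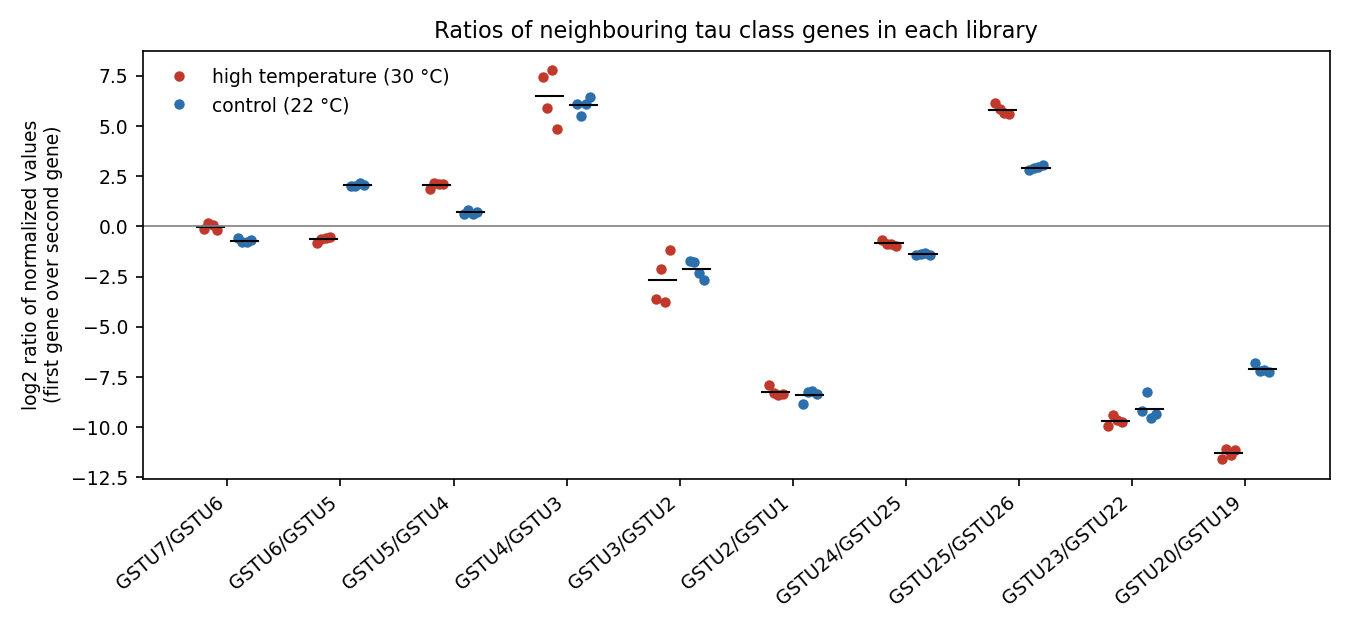
Log2 ratio of the normalized values of neighbouring tau class genes in each library, high temperature in red left of control in blue, with the group mean as a line, n = 4 libraries per group. The points of GSTU6/GSTU5, GSTU25/GSTU26 and GSTU20/GSTU19 lie farthest apart between the temperatures, with differences of -2.70, 2.89 and -4.21, and those of GSTU2/GSTU1 overlap.

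The 17 other tau class genes in the table held larger changes than the members. Of these, 5 were higher and 7 lower, where 20.0 and 17.5% of all genes tested were, and 5 were neither. Their median log2 fold change was -0.42. GSTU9 was the highest, with 3764, 3758, 3951 and 3943 normalized reads at high temperature, against 47.6, 81.8, 60.7 and 50.2 in the control (log2 fold change 6.02 ± 0.13, SE, limma, adjusted p = 5.7e-15). GSTU14 was the lowest, with 14.1, 23.7, 21.9 and 36.8 normalized reads at high temperature, against 2073, 1682, 1893 and 1447 in the control (-6.24 ± 0.21, SE, limma, adjusted p = 1.2e-12). No library of one temperature came near those of the other in either gene. Whether the members differ as a group from the other tau class genes was not tested.

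**Figure D4:**
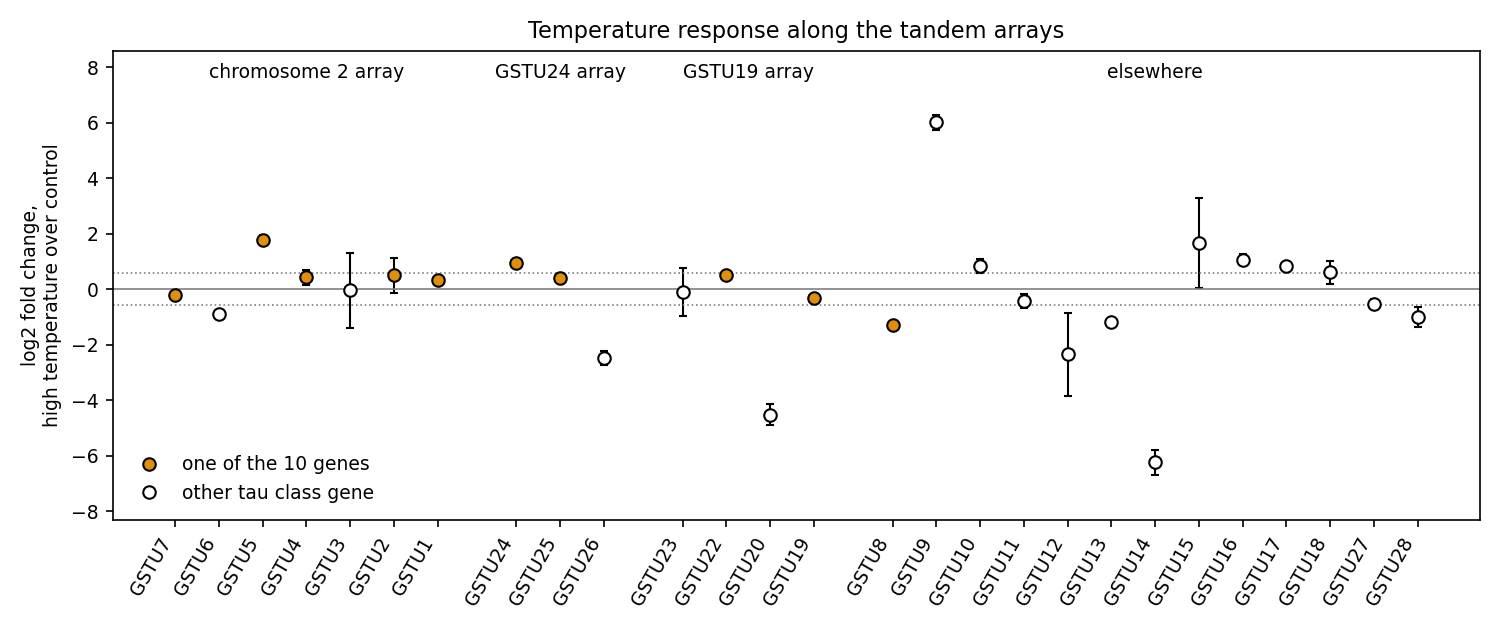
Log2 fold change of each tau class gene, high temperature over control, in gene order within the 3 arrays and then for genes elsewhere, with 95% intervals from limma (n = 4 libraries per group) and dotted lines at the fold threshold of 0.58. The 10 genes, in orange, lie between -1.29 and 1.79, and the other tau class genes, in white, between -6.24 and 6.02.

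Other classes of the family, and the gene lists that follow, were counted in the same way. Their counts stand beside 20.0% of all genes tested that were higher and 17.5% that were lower. Of 10 phi class genes tested, which include enzymes linked to glucosinolate and flavonoid metabolism, 5 were lower and 0 higher, with a median of -1.30. GSTF8 had the highest level of these 10, with a mean of 532 FPKM at high temperature and 580 FPKM in the control. Its log2 fold change of -0.12 gave no call. GSTF9 averaged 3108 ± 500.4 normalized reads at high temperature and 19601 ± 394 in the control (SD, n = 4 each, log2 fold change -2.67). GSTF13 (-1.51) and GSTF14 (-1.76) were lower too, the last on few reads and with its call lost under 10 of the alternative settings (-1.07 without high temperature replicate 3). GSTF7 was at 0 in every high temperature library, against 3.20 to 13.6 normalized reads in the control, a difference of at least 9.02-fold if the high temperature group as a whole is given 3 reads, or 5.56-fold without control replicate 4. Of 10 genes of the other classes 4 were higher and 1 lower, among them the lambda class gene GSTL3 (3.02) and the zeta class gene GSTZ2 (1.71). GSTZ2 had 49 reads over the control libraries and ranged from 1.43 to 2.05 with 1 library left out. The dehydroascorbate reductase genes DHAR3 (0.72) and DHAR1 (-0.74) were among them too, and their enzymes recycle ascorbate with glutathione. DHAR1 was at -0.54 with its call lost at equal library totals.

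The genes that make, break down or move glutathione and its conjugates showed no single direction. None of the 4 genes of glutathione synthesis and reduction passed both thresholds. Among 8 genes of glutathione breakdown 2 were higher and 3 lower. The cytosolic cyclotransferases GGCT2;1 and GGCT2;2, which degrade glutathione, were higher by 2.85 and 2.48 on the log2 scale, whereas the gamma-glutamyl transferase gene GGT2 (-4.28, on 9 reads over the high temperature libraries, and -3.60 without high temperature replicate 1) and the peptidase gene GGP1 (-1.07), whose enzyme processes glutathione conjugates in glucosinolate synthesis, were lower. Of 4 transporter genes of the ABCC family 1 was higher, ABCC3, and 0 were lower. ABCC3 averaged 12461 ± 782 normalized reads at high temperature and 3480.06 ± 149 in the control (SD, n = 4 each, log2 fold change 1.84, limma, adjusted p = 3.7e-14).

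None of the 4 genes for TGA factors and their partner SCL14 passed both thresholds, with log2 fold changes of 0.11 to 0.45. Of 9 genes known to respond to xenobiotics and oxylipins, in part through TGA factors, 3 were higher and 0 lower, with a median of 0.27. These were UGT74E2, a glucosyltransferase of indole-3-butyric acid (2.35), the alkenal reductase gene AER (1.23) and the transcription factor gene NAC032 (0.60), whose call was lost without high temperature replicate 1 (0.56) or without control replicate 2 (0.57). CYP81D11, a cytochrome P450 gene of this group, averaged 8769 ± 360.0 normalized reads at high temperature and 8725 ± 483 in the control (SD, n = 4 each). With the fold threshold kept, the counts of 0 in these lists were 0 also at an unadjusted p under 0.05 in limma. They were 0 in edgeR and in DESeq2 as well, where the adjusted p was used. Scaling to equal library totals gave 1 higher gene of the TGA factors and SCL14. Leaving out high temperature replicate 4 gave 1 higher phi class gene.

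**Figure D5:**
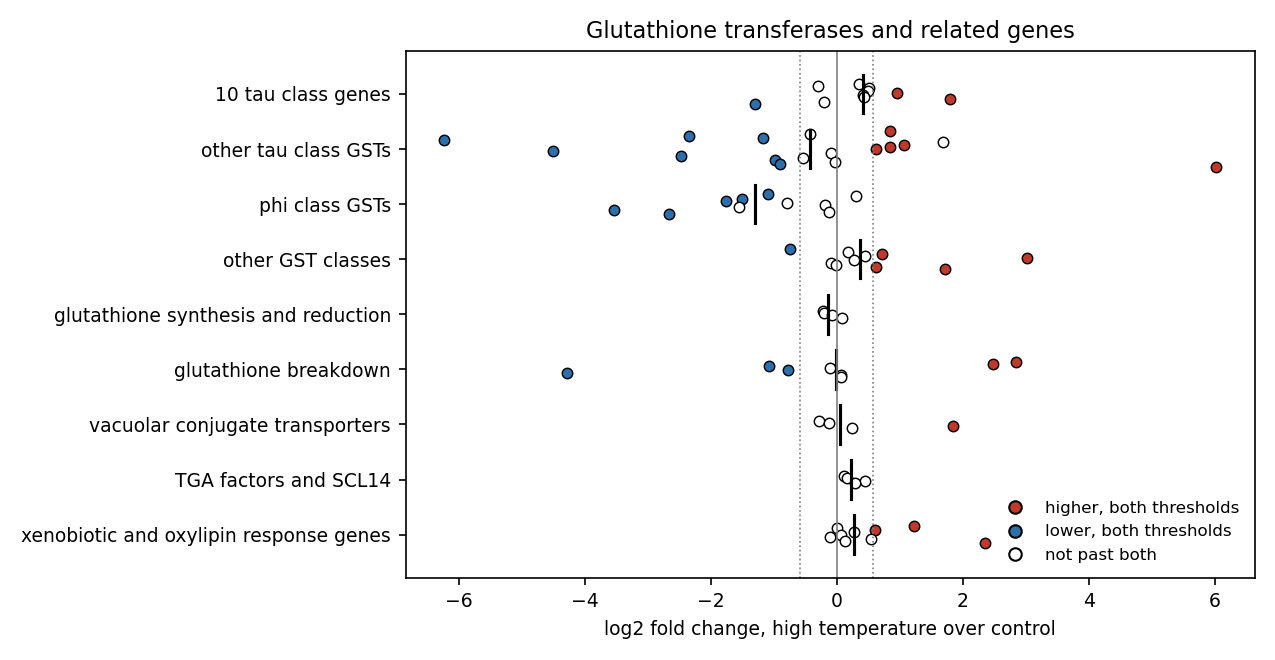
Log2 fold change, high temperature over control, of the genes of each list, with genes past both thresholds in red (higher) or blue (lower), other genes in white, the list median as a vertical bar and dotted lines at 0.58 in either direction. The medians are 0.42 for the 10 tau class genes, -0.42 for the other tau class genes and -1.30 for the phi class.

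The root tips held the markers of their tissue, but the cell type markers moved with temperature. The summed level of 7 root tip identity markers was 10741 to 11427 normalized reads at high temperature and 10509 to 11236 in the control, with 2 of them higher. All 4 root hair markers were lower, with a summed level of 562 to 705 at high temperature and 1939 to 2452 in the control. Of 3 phloem markers 2 were higher, with a summed level of 406 to 480 at high temperature and 211 to 290 in the control. The summed level of 4 root cap markers was 4329 to 4603 at high temperature and 3355 to 3982 in the control, with 0 past both thresholds, and that of 6 endodermis markers 160 to 445 at high temperature and 129 to 200 in the control, with 1 higher. Of 5 xylem markers 1 was higher and 2 lower, with a summed level of 857 to 1132 at high temperature and 853 to 1168 in the control. The 4 photosynthesis markers of the shoot summed to 11.3 to 17.2 at high temperature, and to 99.2 to 129 in the control, with 3 lower. Of these RBCS1A was at 0 in every high temperature library, and RBCS3B was not tested. The part of these shifts in the tau class values was not tested, and fewer cells of a type and less RNA per cell cannot be told apart in such samples.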

How the data were processed

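Poly(A) RNA of root tips was sequenced as directional libraries, each from a pool of 50 seedlings from 5 plates. The labels list 4 replicates per temperature and the methods 3, and all 8 libraries were used. P-values measure the spread between these pools. HISAT2, DESeq2 and TAIR10 are listed in the submitters' processing notes. Tool versions, the counting program and its strand setting were not given in the sources used here. The authors deposited a normalized signal table, in which read counts per gene were divided by DESeq2 size factors, and separately the FPKM of each gene. Converted back to reads, 100% of the normalized values came out whole to within 0.01. Intervals and floors cover counting error or the spread between these libraries only.

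The temperatures were compared with limma 3.58.1 in R 4.3.3 (intensity trend, no covariate). The values tested were log2(normalized value + 0.5), and the 21739 genes whose mean was 1 or more were kept, so that fold changes of low genes are understated. The fold values given as ratios are ratios of group means. Benjamini-Hochberg adjustment ran over all genes kept, and a call needed both an adjusted p below 0.05 and a log2 fold change of 0.58 or more in size. Alternatives were other pseudocounts, filters and scalings, the FPKM table, the replicate block, edgeR 4.0.16 and DESeq2 1.42.0 on the recovered reads, and each library left out in turn. The fits were tested on simulated data. Gene models, upstream windows and coding sequences, which were translated for the protein identities, were read from RefSeq TAIR10.1 by locus tag, and the deposited tables hold no coordinates. Identifier and name disagreed for 2 of 117 list entries, which were left out.

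The members and lists were chosen with earlier results of these data known. Named are the members, their array neighbours and, per list, up to 4 genes past both thresholds with the largest change. CYP81D11 and GSTF8 were named after their values were seen. GSTU21 was not tested, as it is in the FPKM table alone.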

Additional observations from a re-analysis of the deposited data

How the results depend on the processing

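Over 19 alternative settings GSTU5, GSTU24 and GSTU8 kept their calls. Without a fold threshold 7798 genes were higher and 7657 lower over all genes, and 6 members were higher and 3 lower. In the lists it gave 7 higher genes of the other glutathione transferase classes, and 1 higher and 2 lower of glutathione synthesis and reduction. It also gave 2 higher and 2 lower ABCC transporters, 3 higher of the TGA factors and SCL14, and 6 higher and 1 lower xenobiotic response genes. Scaling to equal totals gave 6 higher members, 0 lower genes of the other classes (DHAR1 at -0.54) and 1 higher of the TGA factors and SCL14. Quantile normalization gave 4 higher members, with GSTU22 at 0.71 and GSTU25 at 0.84, and 5 higher xenobiotic response genes. Testing only genes with a mean of at least 10 left 3 lower phi class genes, since fewer genes were tested.

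GSTU19 turned to 0.15 under quantile normalization. GSTU3, which had few reads, turned to 0.042 with a pseudocount of 2, 0.14 with equal totals, 0.061 in the FPKM table, 0.32 in edgeR and 0.31 in DESeq2. GSTU23 turned to 0.10 with equal totals. The cause of these turns was not tested. The log2 ratio of GSTU20 to GSTU19 differed by -3.89 in the FPKM table, where the pseudocount weighs more.

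With 1 library left out, the members higher and lower stayed at 2 and 1, and 0 to 1 phi class genes were higher, the 1 without high temperature replicate 4. GSTU3 ranged from -0.49 to 0.39, the highest value without high temperature replicate 3, with 0.16 without high temperature replicate 1 and 0.12 without control replicate 2. GSTU23 ranged from -0.22 to 0.19, with 0.0003 without high temperature replicate 1 and 0.19 without control replicate 2. NAC032 lost its call without high temperature replicate 1 (0.56) or control replicate 2 (0.57).

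The correlations of same-numbered libraries over 18851 genes were 0.0097, 0.0075, 0.077 and 0.0031. That of replicate 3 was the highest of any pair across the temperatures, but not every library correlated best with its own number. Whether same-numbered pools were handled together is not stated in the sample labels. With the replicate block 4300 genes were higher and 3762 lower over all genes, the members stayed at 2 higher and 1 lower, and GSTF14 lost its call at -1.76. GSTU2 had 95 reads over the high temperature libraries and 58 over the control libraries, which limits the precision of its fold change.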
